A study of Homo sapiens with 6 samples.

Results

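The 49 genes described here encode the machinery that copies DNA and the enzymes that supply its nucleotides. They were taken by gene name and role, with earlier results of these data known. The list holds the 6 subunits of the origin recognition complex, 3 licensing factors, 7 MCM proteins, CDC45 and the 4 GINS subunits. It also holds the sliding clamp and its 5 loader subunits, 9 polymerase and primase subunits, a flap nuclease and a ligase. The rest are 5 nucleotide enzymes and 6 regulators (E2F1, E2F2, E2F8, UHRF1, SLBP and CDC25A). All 49 were measured among the 19775 genes of the array, each at its brightest probe set averaged over the 6 arrays, and every probe set used named 1 gene. The cells were MOLM-14, a human line from an acute myeloid leukaemia that carries MLL-AF9. Cells were kept for 3 h with 25 nM cortistatin A (CA), a steroidal natural product known to block CDK8 and CDK19, the kinases of the Mediator complex, or for 3 h with the solvent DMSO. Each group had 3 samples, each on 1 Affymetrix U133 Plus 2.0 array. The question is which transcripts differ after this short exposure. The labels describe plating in triplicate and name no separate cultures, so the p-values rest on a spread between samples that may be purely technical. Precision is limited by having 3 arrays a group. In RNA from whole cultures, fewer cells of one kind (in S phase, say) and less RNA per cell cannot be told apart.

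Replication is prepared in G1, when the origin recognition complex with CDC6 and CDT1 loads the MCM2 to MCM7 helicase onto DNA. In S phase CDC45 and GINS join it, polymerase alpha with primase lays primers, and polymerases delta and epsilon extend them with the PCNA clamp that RFC loads. Many of these genes are switched on together at G1/S by E2F factors, and ribonucleotide reductase, thymidylate synthase and thymidine kinase provide the deoxynucleotides.

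Array medians ran between 5.03 and 5.08 on the log2 scale. The third CA array stood apart, at 19.7 on the first principal component of all genes (31.6% of the variance), where the other 5 lay between -8.25 and 0.73. Of the myeloid markers, LYZ, FLT3 and PTPRC were bright, with mean log2 values in CA and DMSO of 12.29 and 12.46, 10.36 and 10.32, and 10.55 and 10.59. MPO, CSF1R and SPI1 lay nearer the array medians, with CA means of 6.38, 5.90 and 5.37 and DMSO means of 6.32, 5.81 and 5.49. CEBPA, a myeloid transcription factor, rose in CA (mean 11.81, against 11.33 in DMSO; limma adjusted p = 0.0173, or 0.105 with a replicate block and 0.0487 to 0.113 without 1 array). CD33 and CD68 were not analysed here. The epithelial marker EPCAM was dim (CA mean 2.66, DMSO mean 2.60), while KRT18 was not (CA mean 9.25, DMSO mean 9.27).

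One gene of the 49 passed the test across all genes. RRM2, the small subunit of ribonucleotide reductase, fell by 22.7% in CA, and none rose. With limma and Benjamini-Hochberg adjustment over 19775 genes, 0.0556% of all genes were lower at an adjusted p under 0.05 and 0.839% were higher. The log2 changes of the other 48 were small: 7 of the 49 moved by 1.1-fold or more (14.3%, against 21.1% of all genes) and 3 by 1.2-fold or more (6.12%, against 3.8%). In 44 of the 49 (89.8%) the 95% confidence interval lay wholly within 0.32 of 0 on the log2 scale, which held for 68.6% of all genes. These genes were measured more tightly than most, with a median standard error of 0.047 on the log2 scale, against 0.071 over all genes. All 49 were brighter than the median probe set, as were 12515 of the 19775 genes. The shares over all genes thus include dimmer genes.

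Within that narrow range the differences leaned downward. Of the 49, 33 had a log2 change below 0 (67.3%, against 48.3% of all genes), and their median log2 change was -0.029, against 0.0037 over all genes. The 3 CA values lay below the 3 DMSO values in 16 (32.7%, against 7.53% of all genes) and above them in 3 (6.12%, against 11.8%). At an unadjusted limma p under 0.05, 8 were lower (16.3%, against 4.5%) and 1 was higher (2.04%, against 7.09%). Array by array, the median deviation of the 49 genes from their DMSO means was -0.023, -0.012 and -0.027 in the CA samples and -0.0044, 0.013 and -0.0087 in the DMSO samples. The list was proposed with results of these data known, so these shares describe it and are not a test. In a principal component analysis of the 49 genes alone, the first component held 59.0% of the variance and placed the CA arrays at 0.41, 0.32 and 0.45 and the DMSO arrays at -0.34, -0.43 and -0.41. RRM2, E2F8 and E2F2 gave 22.8%, 15.6% and 11.1% of that component.

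**Figure D1:**
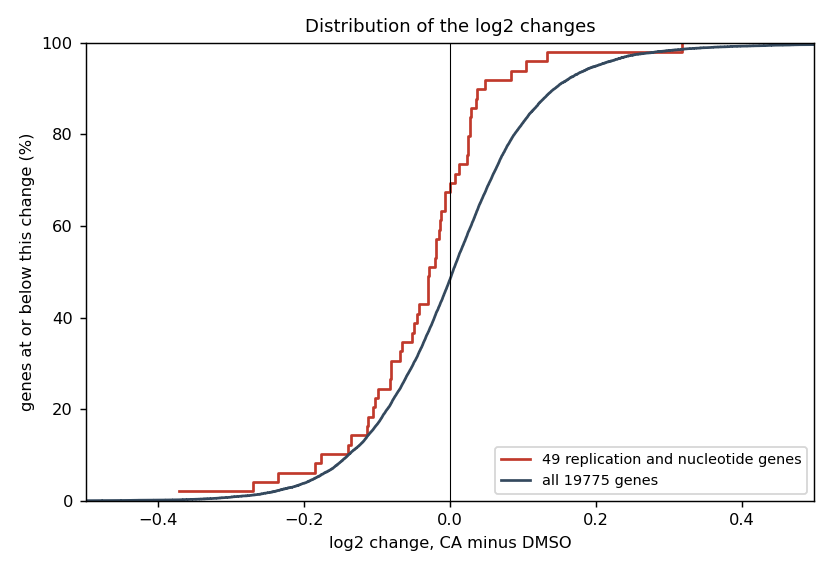
Cumulative distribution of log2 changes (x axis, CA minus DMSO) as a percentage of genes (y axis), for the 49 genes in red and all 19775 genes in dark grey; the x axis stops at 0.5 on either side. The red curve is steeper and crosses 0 at 67.3%, where the curve of all genes stands at 48.3%.

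Ribonucleotide reductase turns ribonucleotides into deoxyribonucleotides and is built from RRM1, the large catalytic subunit, and RRM2. RRM2 had log2 values of 11.66, 11.71 and 11.64 in CA samples and 11.98, 12.08 and 12.06 in DMSO samples. Every CA value lay well below every DMSO value. Its fold was 0.773 (95% confidence interval 0.713 to 0.839, limma adjusted p = 0.0307). The second RRM2 probe set also kept the groups apart, at 10.94, 11.00 and 11.03 in CA and 11.21, 11.21 and 11.19 in DMSO, with a smaller change of -0.21 (adjusted p = 0.327 in the fit of all probe sets, where the first had 0.083). The RRM2 call needed all 6 arrays: without any 1 of them its log2 change was -0.40 to -0.35 and its adjusted p was 0.0757 to 0.164. It was also lost with a replicate block (adjusted p = 0.117) and with probe sets ending in _x_at, _s_at or _a_at left out (0.0539), while an intensity trend and a robust prior gave 6.4e-05.

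The other enzymes of this group moved little. RRM1 had log2 values of 12.08, 12.07 and 12.00 in CA and 12.16, 12.15 and 12.16 in DMSO. Its groups did not overlap, with a fold of 0.929 (0.864 to 1.0, adjusted p = 0.430), while its second, dimmer probe set had a log2 change of 0.04 and overlapping groups. The interval of RRM1 lay above that of RRM2, and the difference between the subunits was not tested. TYMS, thymidylate synthase, had 12.77, 12.76 and 12.75 in CA and 12.76, 12.79 and 12.77 in DMSO, a fold of 0.991 (0.926 to 1.06). TK1, thymidine kinase, was as flat at 0.995-fold (0.930 to 1.07). DUT, which removes dUTP, was at 0.969-fold (0.902 to 1.04), with CA values just below all DMSO values. Its other probe sets overlapped between groups, with log2 changes of -0.015 and -0.0068. The median log2 change of the 5 enzymes was -0.046.

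**Figure D2:**
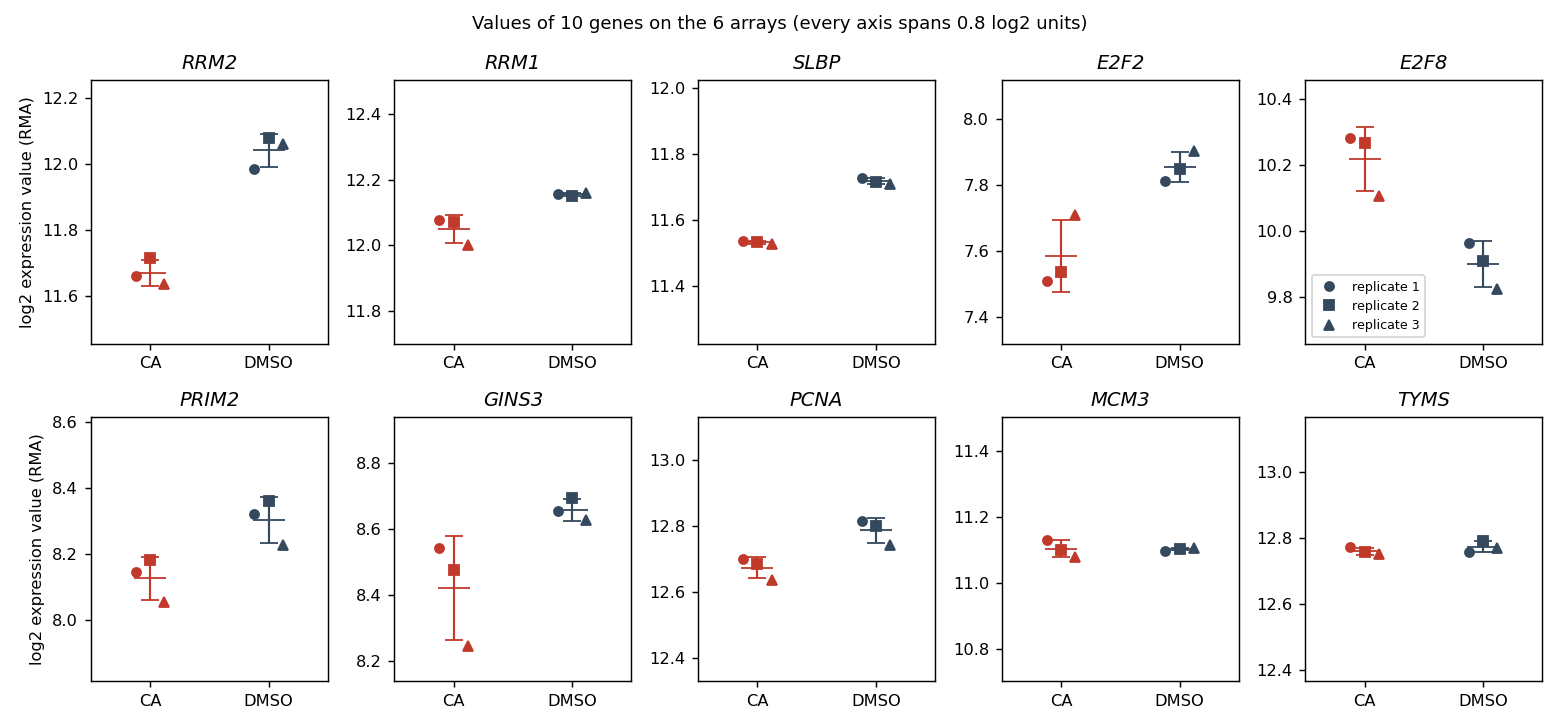
Log2 values (y axis, RMA) of 10 genes on the 3 CA arrays (left, red) and the 3 DMSO arrays (right, dark grey), with mean and SD as bars; markers give the replicate and every y axis spans 0.8 log2 units. RRM2, SLBP and E2F2 lie lower in CA and E2F8 higher with no overlap, while MCM3 and TYMS values mix.

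The 6 regulators held the largest changes after RRM2, and they went both ways. SLBP, which binds the stem-loop of replication-dependent histone mRNAs, had 11.54, 11.53 and 11.53 in CA samples and 11.73, 11.72 and 11.71 in DMSO samples. Replicates were almost identical and the groups were far apart for their spread, with a fold of 0.880 (0.823 to 0.939). Its adjusted p of 0.135 missed the threshold, whereas it was 0.0345 without dim probe sets and 0.000992 with an intensity trend and a robust prior, so SLBP passed in those fits.

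E2F2, an activating E2F factor, had 7.51, 7.53 and 7.71 in CA and 7.81, 7.85 and 7.90 in DMSO. All CA values were lower, at 0.829-fold (0.742 to 0.925, adjusted p = 0.189), but its 2 dimmer probe sets had log2 changes of 0.0088 and -0.13 with overlapping groups. E2F8, an atypical E2F factor that represses, went the other way. Its log2 values were 10.28, 10.27 and 10.11 in CA and 9.96, 9.91 and 9.83 in DMSO. The groups were apart, with CA higher by 24.7% (11.6% to 39.5%, adjusted p = 0.129). E2F2 and E2F8 passed with the intensity trend and robust prior, at adjusted p = 0.0482 and 0.00597.

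E2F1, the other activating E2F factor in the list, had the widest spread of the 49, at 7.91, 7.94 and 8.36 in CA and 8.29, 8.05 and 8.21 in DMSO. The third CA array alone lay above the DMSO values; without it the log2 change was -0.26 in place of -0.11 (adjusted p = 0.273 and 0.783). UHRF1, which guides DNA methylation behind the fork, had 11.97, 12.00 and 11.86 in CA and 12.07, 12.09 and 12.07 in DMSO, a fold of 0.910 (0.837 to 0.990, adjusted p = 0.383). CDC25A, the phosphatase that activates CDK2, had groups apart at all 3 of its probe sets. At the brightest it had 8.31, 8.35 and 8.31 in CA and 8.39, 8.44 and 8.37 in DMSO, a log2 change of -0.081. The dimmer ones changed more, by -0.28 and -0.25 (adjusted p = 0.479 and 0.470 in the fit of all probe sets). The median log2 change of the 6 regulators was -0.13.

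Promoter letters were read from RefSeq. Windows from 250 bases before to 50 bases after the annotated start (GRCh38.p14) matched 44 of the 49 genes; E2F8, GINS4, MCM4, MCM5 and POLD3 had none. Where a gene had several windows, as 11 did, the first listed was used. An E2F type motif, any of TTTCGCGC, TTTGGCGC, TTTCCCGC and TTTGCCGC on either strand, was in 22 of the 44, against 3.33% of 27305 promoters. CCAAT on either strand was in 24 (54.5%, against 35.7%). TTTGAA and TTCGAA, both CHR type motifs, were each in 1 (2.27%, against 15.4% and 1.45%). The 22 genes with the motif had a median log2 change of -0.024 and 4 lower at an unadjusted limma p under 0.05, and the 22 without it had -0.024 and 4. A match is a description of letters, not a binding site.

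The windows of 3 genes are printed because they pair the call with its contrasts: RRM2, which fell, E2F2, whose CA values were lower, and MCM6, which was flat. Capitals mark E2F type and CCAAT letters on either strand. The first listed RRM2 window (chr2:10122489-10122788, plus strand) holds CCAAT at -123, -93 and -66 from the start and no E2F type letters. RRM2 was among the genes with several windows, and its others were not searched. The E2F2 window (chr1:23531184-23531483, minus strand) holds 1 E2F type motif at -42. The MCM6 window (chr2:135876394-135876693, minus strand) holds 4, as overlapping pairs on opposite strands at -152 and -148 and at -90 and -86, beside CCAAT on the reverse strand at -100 and -58.
RRM2: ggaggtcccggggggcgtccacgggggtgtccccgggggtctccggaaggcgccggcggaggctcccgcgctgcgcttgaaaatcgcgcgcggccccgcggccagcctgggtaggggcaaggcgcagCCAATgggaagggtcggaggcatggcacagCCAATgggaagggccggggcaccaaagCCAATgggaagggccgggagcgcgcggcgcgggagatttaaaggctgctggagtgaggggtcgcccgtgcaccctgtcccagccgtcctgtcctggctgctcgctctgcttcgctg
E2F2: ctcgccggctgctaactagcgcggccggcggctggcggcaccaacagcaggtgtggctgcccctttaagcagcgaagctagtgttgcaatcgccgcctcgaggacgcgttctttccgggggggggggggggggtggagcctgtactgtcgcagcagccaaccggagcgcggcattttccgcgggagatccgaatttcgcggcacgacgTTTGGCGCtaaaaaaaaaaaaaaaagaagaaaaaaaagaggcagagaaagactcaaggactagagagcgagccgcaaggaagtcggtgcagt
MCM6: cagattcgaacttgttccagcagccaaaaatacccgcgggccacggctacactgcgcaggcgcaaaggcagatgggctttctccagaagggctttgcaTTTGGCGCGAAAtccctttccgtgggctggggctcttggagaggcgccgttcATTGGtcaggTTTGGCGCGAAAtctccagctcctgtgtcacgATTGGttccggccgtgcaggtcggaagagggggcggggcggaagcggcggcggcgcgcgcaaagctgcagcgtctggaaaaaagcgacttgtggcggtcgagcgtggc

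The 6 ORC subunits mark origins, and at the probe sets used 0 of them had an unadjusted limma p under 0.05 or groups apart. Their median log2 change was -0.029, and turned positive without DMSO replicate 2 (0.012). With probe sets ending in _x_at, _s_at or _a_at left out, the 4 subunits that remained had a median of 0.052. ORC5 had the largest difference, with 9.20, 9.33 and 9.31 in CA and 9.14, 9.24 and 9.07 in DMSO, a fold of 1.1 (0.987 to 1.22). The other 5 had log2 changes between -0.068 for ORC6 and 0.0074 for ORC4. A dimmer ORC4 probe set had CA above all DMSO values, with a log2 change of 0.15. ORC1, the subunit whose level follows the cell cycle, was at 0.965-fold (0.895 to 1.04).

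CDT1 and its inhibitor geminin (GMNN) both had CA values below all DMSO values. CDT1 had 10.10, 10.24 and 10.25 in CA and 10.28, 10.41 and 10.31 in DMSO, at 0.908-fold (0.816 to 1.01, adjusted p = 0.469), and its second probe set had a log2 change of 0.05. GMNN had 11.84, 11.91 and 11.82 in CA and 11.92, 11.93 and 11.97 in DMSO, at 0.944-fold (0.874 to 1.02). CDC6, the partner of CDT1 in loading the helicase, was at 1.02-fold (0.937 to 1.11) with mixed values.

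The MCM genes stayed close to 0, with log2 changes from -0.05 for MCM4 to 0.04 for MCM5 and a median of -0.0074 (0.0076 with array weights). MCM3 had 11.13, 11.10 and 11.08 in CA and 11.10, 11.10 and 11.11 in DMSO, and its fold was 1.0 (0.934 to 1.07). MCM2, MCM6 and MCM7 were at 0.979-fold, 1.01-fold and 0.995-fold, and the widest interval among them was 0.907 to 1.06. MCM10, which helps activate the loaded helicase, depended on the probe set. The brightest overlapped between groups, with a log2 change of -0.042, whereas the other 2 had CA values below all DMSO values and changes of -0.15 and -0.22 (unadjusted p = 0.0373 and 0.0187 in the limma fit of all probe sets). MCM4 also varied, over 5 probe sets between -0.21 and 0.02. At 2 of them, including the one used, all CA values were below all DMSO values. At the one with -0.21 the groups overlapped.

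CDC45 was at 1.02-fold (0.929 to 1.12) with overlapping groups. Of the GINS subunits, GINS3 had the largest change, with 8.54, 8.48 and 8.25 in CA and 8.65, 8.69 and 8.63 in DMSO. All CA values were lower and the third CA array lowest, at 0.849-fold (0.740 to 0.974, adjusted p = 0.354). Its log2 change was -0.15 without that array, in place of -0.24. The second GINS3 probe set gave -0.13 with the groups apart. GINS1 was at 0.931-fold (0.862 to 1.01), with 11.03, 11.08 and 11.03 in CA and 11.14, 11.20 and 11.11 in DMSO. GINS2, whose groups were also just apart, differed by -0.019 and GINS4 by -0.08 on the log2 scale.

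**Figure D3:**
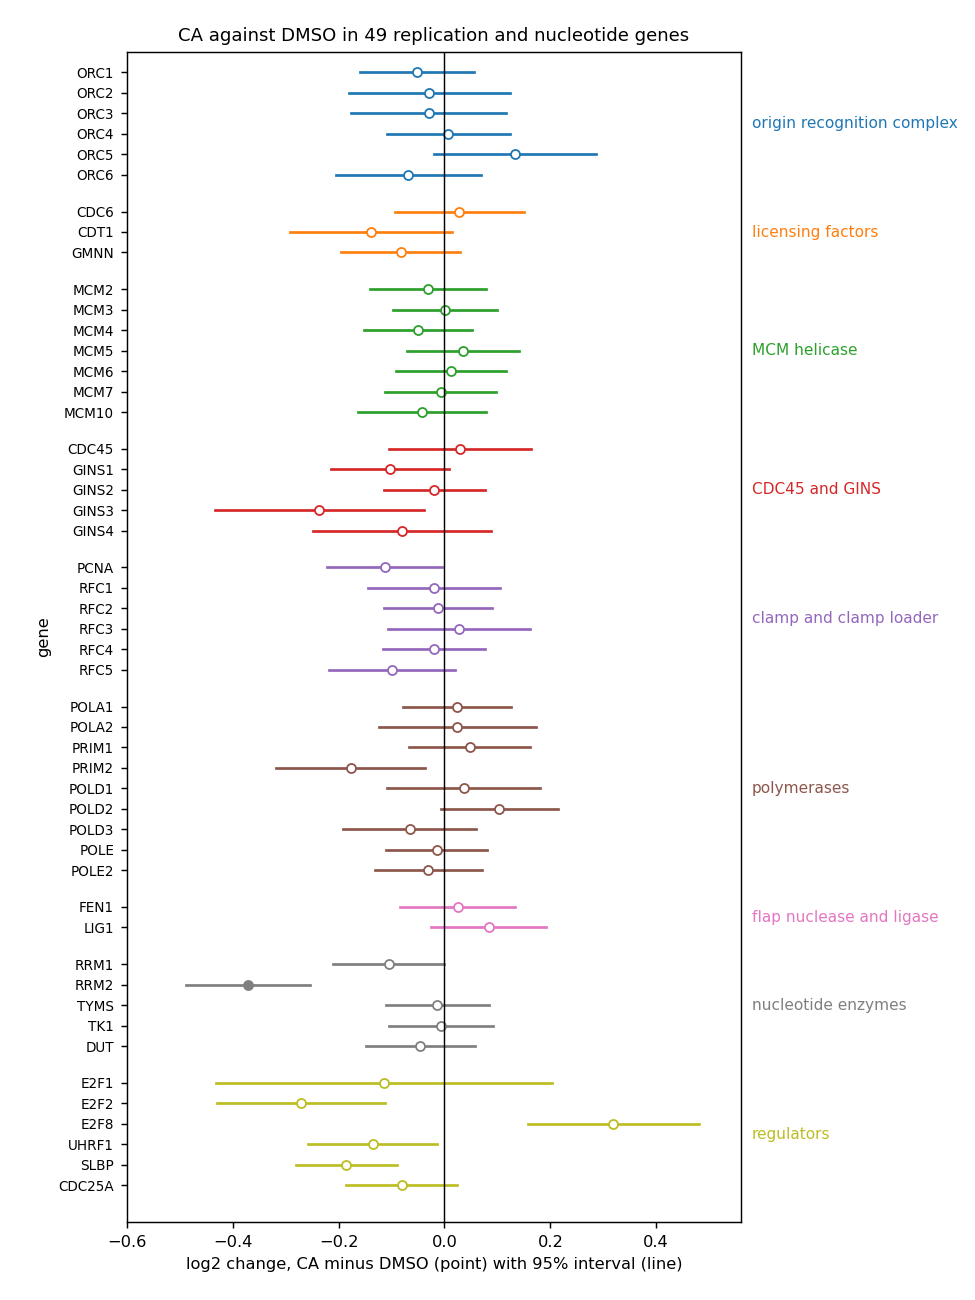
Log2 change (x axis, CA minus DMSO) of each of the 49 genes (y axis) with its 95% confidence interval, coloured by role; a filled point has an adjusted p under 0.05. RRM2 is the one filled point, at -0.37, and most of the other points lie between -0.2 and 0.1.

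PCNA, the sliding clamp, had 12.70, 12.68 and 12.64 in CA and 12.81, 12.80 and 12.74 in DMSO. The CA values were lower without overlap, at 0.925-fold (0.857 to 0.997, adjusted p = 0.415, or 0.0417 with an intensity trend and robust prior). RFC1 to RFC4 had log2 changes between -0.02 and 0.03. RFC5 had 10.50, 10.47 and 10.43 in CA and 10.61, 10.58 and 10.50 in DMSO, at 0.934-fold (0.860 to 1.01), with the groups just apart.

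Among the polymerases, the primase subunits differed from each other in sign. PRIM2, the large subunit, had 8.14, 8.18 and 8.05 in CA and 8.32, 8.36 and 8.23 in DMSO. The groups were apart, at 0.884-fold (0.803 to 0.974, adjusted p = 0.330); its other probe sets also list the related PRIM2BP. PRIM1, the catalytic subunit, was at 1.03-fold (0.955 to 1.12) with overlap, and the difference was not tested. POLA1 and POLA2 of polymerase alpha were both at 1.02-fold. The dimmer POLA2 probe sets had log2 changes of -0.065, with overlap, and -0.17, with CA below all DMSO values. The latter was dim, with means of 4.75 in CA and 4.91 in DMSO. POLD2, an accessory subunit of polymerase delta, had 8.09, 8.01 and 8.07 in CA and 7.95, 7.99 and 7.93 in DMSO, all CA values higher, at 1.07-fold (0.995 to 1.16). POLD1 was at 1.03-fold and POLD3 at 0.955-fold, and POLE and POLE2 of polymerase epsilon were at 0.990-fold and 0.979-fold. The group's median of 0.02 became -0.0034 after a new quantile normalisation. FEN1, which trims Okazaki fragment flaps, was at 1.02-fold (0.944 to 1.1). LIG1, which seals them, had 8.80, 8.84 and 8.78 in CA and 8.69, 8.72 and 8.76 in DMSO, just apart, at 1.06-fold (0.983 to 1.14).

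Repeat measurement within genes gave a further view. Of 28 genes with several probe sets that name them alone, 3 (RRM2, CDC25A and GINS3) had CA below DMSO on every probe set, which held for 0.627% of 10523 such genes on the array. Of the 28, 0 had CA above DMSO at every probe set, against 1.65%. Of the 44 probe sets beside those used, 25 had the sign of the one used, a share that was not computed over all genes. In the limma fit of all probe sets 0 of the 44 passed, where 0.22% passed in all and 0.00732% were lower.

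**Figure D4:**
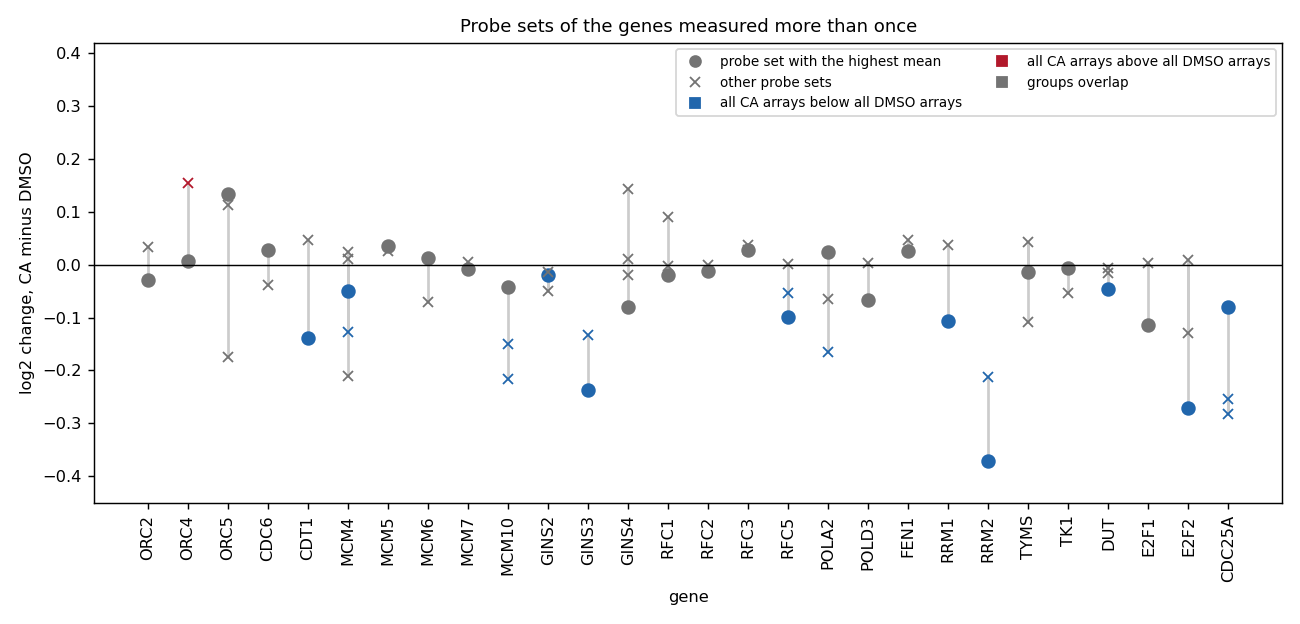
Log2 change (y axis, CA minus DMSO) of every probe set naming 1 gene, for the 28 genes with several (x axis); circles are the probe sets used and crosses the others. Blue marks all CA arrays below all DMSO arrays and red the opposite, and the symbols of RRM2, GINS3 and CDC25A are all blue.

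Other genes of the same pathways were read from the same fit. Of 34 further replication genes none passed in limma, with 1 lower and 0 higher at an unadjusted p under 0.05 (against 4.5% and 7.09% of all genes), and their median log2 change was -0.022. The lower one was DSCC1, part of an alternative clamp loader, with 9.99, 10.01 and 9.96 in CA and 10.11, 10.11 and 10.14 in DMSO (0.913-fold, adjusted p = 0.310). WDHD1, CLSPN and DNA2, next by p, had log2 changes of -0.26, -0.093 and -0.18.

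Further genes of nucleotide metabolism had mostly positive log2 changes. Of 31 measured, 25 had a log2 change above 0, with a median of 0.05, none passed in limma, and 7 had CA above all DMSO values and 1 below. Over all genes 48.3% were below 0, and the groups were apart with CA higher in 11.8% and lower in 7.53%. CAD, which starts pyrimidine synthesis, had 9.32, 9.45 and 9.44 in CA and 9.20, 9.30 and 9.30 in DMSO (1.1-fold, adjusted p = 0.429). UMPS, which completes it, was at 1.08-fold (0.992 to 1.18). ATIC of purine synthesis and DTYMK, thymidylate kinase, were both at 1.06-fold.

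Of 18 G1/S control genes, 1 fell and 1 rose, against 0.0556% and 0.839% of all genes. CCNE2, cyclin E2, fell to 10.09, 10.19 and 9.96 in CA, against 10.58, 10.64 and 10.56 in DMSO (adjusted p = 0.0307). CDKN1B, the inhibitor p27 of cyclin E and CDK2, rose 1.31-fold (1.19 to 1.44, limma adjusted p = 0.0455). It had 10.83, 10.88 and 10.72 in CA and 10.36, 10.44 and 10.46 in DMSO. CDKN1A, another CDK inhibitor of the list, was lower with the groups apart, at 0.896-fold (0.823 to 0.976, limma adjusted p = 0.323). CCNE1 was at 0.893-fold (0.832 to 0.959, adjusted p = 0.221), and E2F7, the closest relative of E2F8, was at 0.871-fold (0.791 to 0.959, adjusted p = 0.272), in the opposite direction to E2F8. Neither call was stable: with a replicate block the adjusted p was 0.0873 for CCNE2 and 0.159 for CDKN1B, and without 1 array 0.048 to 0.168 and 0.0473 to 0.232, where both passed only without the third CA array. CCNE2 also missed the threshold at 0.119 with the mean of its probe sets, and CDKN1B at 0.0716 with probe sets ending in _x_at, _s_at or _a_at left out. Over all probe sets they were at 0.0687 and 0.102. The median log2 change of the 18 genes was -0.12. CDK8, CDK19 and CCNC, the kinases and cyclin of the Mediator module, were at 0.908-fold, 0.988-fold and 1.0-fold, and none passed.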

How the data were processed

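RNA of 3 CA and 3 DMSO samples was hybridised from 100 ng to 1 array each, per the labels' protocols. The authors deposited log2 values; the submitters' processing notes name RMA and affy. Their versions are not stated here. RMA includes a normalisation between arrays, which can hide a shift common to most genes; array medians of the deposited values still differed slightly. Of 54675 probe sets, 62 controls were left out; 41091 had 1 gene symbol in the platform annotation. Values were used as deposited. One probe set per gene (19775 genes) entered a linear model without a block (limma 3.58.1, R 4.3.3), with two-sided moderated tests. P-values were adjusted by Benjamini-Hochberg across the 19775 genes, with 0.05 as the threshold. An exact permutation test of 3 against 3 cannot give a two-sided p below 0.1. Folds and their 95% intervals are back-transformed from limma's log2 estimates. Alternatives were a replicate block, an intensity trend, array weights, other probe set rules, a new quantile normalisation and leaving out each array. The genes and lists were chosen with earlier results of these data known. All 49 genes could be named. Outside them this held for genes that passed, the 4 smallest p of each further list, the markers, and CDK8, CDK19 and CCNC. CDKN1A was added beside CDKN1B.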

Additional observations from a re-analysis of the deposited data

How the results depend on the processing

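Among the 49 genes, 1 was called lower and 0 higher. The numbers called lower and higher were 4 and 1 with an intensity trend and robust prior (PCNA, RRM2, E2F2 and SLBP lower, E2F8 higher), 2 and 0 without dim probe sets (RRM2 and SLBP), and 0 and 0 with the replicate number as a block, without _x_at, _s_at and _a_at probe sets (38 genes left), over all non-control probe sets, and without any 1 array. At an unadjusted limma p under 0.05, 8 were lower and 1 higher. The numbers lower were 12 with the trend, 12 after a new quantile normalisation, 9 without dim probe sets, 7 without the 3 probe set classes and 5 over all probe sets. In the main fit 4.5% of all genes were lower at that threshold. The share in those fits was 5.34%, 5.95%, 5.89%, 4.15% and 3.71%, in the same order, the last being of all probe sets. Those higher were 2 with the trend and without dim probe sets. Without 1 array 3 to 6 were lower and 1 to 2 higher, where 2.97% to 6.45% of all genes were lower. At an adjusted p under 0.05, 0.0556% of all genes were lower in the main fit. The share was 0.485% with the trend and 0.32% without dim probe sets. Calls over all genes numbered 177, and 6 with the block, 546 with the trend, 351 without dim probe sets, 74 without the 3 probe set classes, and 1 to 112 without 1 array.

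Medians by role moved beyond their spread between arrays as follows. With array weights MCM was at 0.0076 and the regulators at -0.15. With the mean of all probe sets MCM was at -0.030, CDC45 and GINS at -0.028 and polymerases at -0.015. Without the 3 probe set classes the groups held fewer genes. ORC (4 genes left) was at 0.052, polymerases (8) at -0.0035, nucleotide enzymes (4) at -0.010 and regulators (5) at -0.11. Licensing, at -0.039, was CDC6 alone. Nuclease and ligase, at 0.084, was LIG1 alone. After a new quantile normalisation all 49 genes were at -0.049, MCM at -0.024, clamp and loader at -0.037, polymerases at -0.0034, nuclease and ligase at 0.037 and regulators at -0.14. Without 1 array the ranges were -0.033 to -0.017 for all 49, -0.055 to 0.012 for ORC, -0.11 to -0.064 for licensing, -0.014 to 0.0087 for MCM, -0.12 to -0.024 for CDC45 and GINS, -0.042 to -0.010 for the clamp group, -0.0085 to 0.017 for polymerases, 0.045 to 0.062 for nuclease and ligase, -0.059 to -0.027 for nucleotide enzymes and -0.15 to -0.11 for regulators. The causes were not tested.

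Samples of the same number shared no stated origin. Their deviations correlated at 0.04, 0.22 and 0.25 across genes. CA replicates 2 and 3 correlated best with the DMSO replicate of their own number, and CA replicate 1 with DMSO replicate 2 (0.09). Whether the replicate numbers mark a pairing was not tested. With this replicate block, which cannot alter a log2 change in a balanced design, RRM2 (log2 change -0.37) had an adjusted p of 0.117.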
